A study of Mus musculus with 16 samples.

Results

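This comparison sets 7 mouse liver tumours labelled as mutated in Ctnnb1 (beta-catenin) directly against 3 labelled as mutated in Ha-ras, which encodes a small GTPase. Its members are the 10 of the 16 arrays whose titles name these tumours, and it covers all 18193 genes measured by probe sets with a single gene symbol. RNA of each sample was read on an Affymetrix GeneChip, and the values are log2 expression levels after RMA, a method that corrects the background, equalizes the arrays and summarizes the probes of a probe set. All livers were of male C3H/HeJ mice. The series design gives a single injection of the liver carcinogen DEN (diethylnitrosamine), of 10 or 90 µg per g, when the mice were 2 or 6 weeks old. The Ctnnb1 tumours were labelled as coming from mice given 0.05% phenobarbital in drinking water for 27 weeks, and the Ha-ras tumours from mice that drank water without it. The design text speaks of a diet with 0.05% phenobarbital for 28 to 36 weeks, after an interval of 2 weeks, and a protocol text speaks of 28 days. Beside the tumours stand 3 non-tumour livers under phenobarbital, labelled as controls of the Ctnnb1 tumours, and 3 non-tumour livers without it, labelled as controls of the Ha-ras tumours. The mutation and phenobarbital differ together between the tumour groups, so that their shares in a difference cannot be told apart. The labels do not give the exact mutation, the dose of DEN for a sample or whether each tumour came from a mouse of its own, so that the p-values measure the spread between these samples.

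Beta-catenin is the effector of canonical Wnt signalling. When it is not degraded it enters the nucleus, binds TCF/LEF factors and switches on target genes, among them inhibitors that feed back on the pathway. In healthy liver this activity marks the hepatocytes around the central vein, which make glutamine, bile acids and drug-metabolizing enzymes, while hepatocytes near the portal vein make urea and glucose. Ha-ras passes growth factor signals to the kinases RAF, MEK and ERK, which raise immediate early transcription factors and their own feedback inhibitors. Phenobarbital acts on liver mainly through the nuclear receptor CAR, which induces cytochrome P450 and conjugating enzymes.

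Levels of the arrays were comparable. The array medians lay between 5.03 and 5.10, and Gapdh, read from both ends of its transcript as a measure of RNA integrity, differed by at most 0.32 except in phenobarbital control 6, at 2.70. Markers of hepatocytes were high on every tumour array, with a mean level of 14.02 to 14.15 in Ctnnb1 tumours and 14.28 to 14.34 in Ha-ras tumours. Markers of Kupffer cells and macrophages differed within the Ha-ras group: their mean level was 7.69 to 8.48 in Ctnnb1 tumours, but 6.58 and 6.87 in Ha-ras tumours 1 and 2 and 8.54 in Ha-ras tumour 3. Ctnnb1 tumour 6 had the lowest mean level of pericentral genes of its group, 11.27 against a group median of 12.50. In whole pieces of tissue, fewer cells of a type and less RNA per cell cannot be told apart.

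Of the 18193 genes, 2750 (15.1%) differed between the tumour types at a Benjamini-Hochberg adjusted p under 0.05 (limma). There were 1312 genes (7.21%) with the higher level in Ctnnb1 tumours and 1438 (7.9%) with the higher level in Ha-ras tumours, and 898 (4.94%) also differed by at least 2-fold, 403 (2.22%) and 495 (2.72%) in these directions. Below, every difference is the log2 level in Ctnnb1 tumours minus that in Ha-ras tumours, with its standard error (SE) from the fit, and "passed" refers to this threshold. On 2942 genes (16.2%) the 7 arrays and the 3 arrays did not overlap, 1382 (7.6%) with Ctnnb1 and 1560 (8.57%) with Ha-ras tumours higher. Over all genes the median difference was 0.00. The count rests most on Ha-ras tumour 1, without which 1745 genes passed. Without Ctnnb1 tumour 6, 2750 passed.

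**Figure D1:**
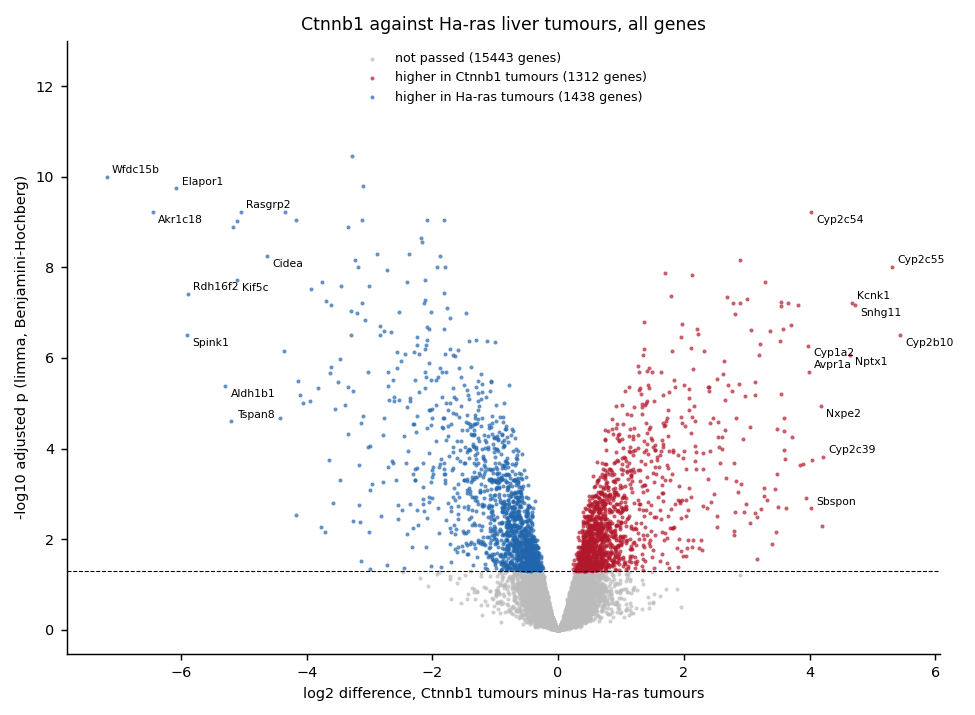
Log2 difference of each of 18193 genes (x axis, Ctnnb1 minus Ha-ras tumours) against -log10 of its adjusted p from limma (y axis), with the dashed line at 0.05. The 1312 genes higher in Ctnnb1 tumours are red and the 1438 higher in Ha-ras tumours blue, and the differences farthest from 0 are those of Wfdc15b at -7.18 and Akr1c18 at -6.45.

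Genes of Wnt feedback were higher in Ctnnb1 tumours. Of 19 measured Wnt target and feedback genes, 10 passed with the higher level there and 0 with the higher level in Ha-ras tumours, and the list's median difference was 1.74 against 0.00 over all genes. The promoters of a few members that moved together are printed here to show the TCF/LEF sequence, searched as CTTTGAA or CTTTGAT on both strands from 250 bases before to 50 bases after the RefSeq start (GRCm38.p6). Cyp1a2 and Lect2 are pericentral genes and Sp5 is a Wnt target, all 3 higher in Ctnnb1 tumours. They lie at chr9:57683606-57683905 (minus strand), chr13:56548489-56548788 (minus strand) and chr2:70474673-70474972 (plus strand), and the capitals mark the match, as written 5′ to 3′ along the gene.
Cyp1a2: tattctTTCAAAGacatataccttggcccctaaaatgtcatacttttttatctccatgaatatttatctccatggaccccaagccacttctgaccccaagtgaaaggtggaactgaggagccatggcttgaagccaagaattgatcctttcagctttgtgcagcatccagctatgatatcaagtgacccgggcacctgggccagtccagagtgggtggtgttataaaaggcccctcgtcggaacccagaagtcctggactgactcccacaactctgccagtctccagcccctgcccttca
Lect2: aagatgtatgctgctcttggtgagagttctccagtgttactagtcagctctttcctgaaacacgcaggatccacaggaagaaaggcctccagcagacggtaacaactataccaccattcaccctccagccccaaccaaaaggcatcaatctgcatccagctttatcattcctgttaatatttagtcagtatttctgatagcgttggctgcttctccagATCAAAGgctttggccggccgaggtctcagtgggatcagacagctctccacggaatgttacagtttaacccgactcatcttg
Sp5: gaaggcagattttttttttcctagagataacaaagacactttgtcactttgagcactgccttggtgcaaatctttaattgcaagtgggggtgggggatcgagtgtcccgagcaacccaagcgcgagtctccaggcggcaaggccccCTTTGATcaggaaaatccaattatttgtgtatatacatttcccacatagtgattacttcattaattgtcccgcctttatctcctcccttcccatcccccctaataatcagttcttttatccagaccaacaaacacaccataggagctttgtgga
The match begins at position -244 from the start in Cyp1a2, at -32 in Lect2 and at -104 in Sp5. Of 14452 tested genes with a promoter in the table, 1168 (8.08%) held such a match. It was held by 100 of 1062 genes (9.42%) higher in Ctnnb1 tumours, by 71 of 1136 (6.25%) higher in Ha-ras tumours, by 5 of the 11 pericentral genes with a promoter (Blvrb, Cyp1a2, Cyp2e1, Lect2 and Slc1a2) and by 3 of the 11 Wnt targets (Dkk1, Sp5 and Tnfrsf19). A match describes the letters of this window and does not show binding.

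Lgr5, the receptor for R-spondins that marks Wnt-driven stem cells, had a lowest level of 6.22, a median of 8.83 and a highest of 9.38 in Ctnnb1 tumours, and lay at 4.46, 4.12 and 4.87 in Ha-ras tumours 1 to 3. The groups did not overlap, and the difference of 3.85 ± 0.58 (SE; adjusted p = 0.000231, limma) was 14.4-fold. Its other probe set, with a difference of 0.092, did not pass. Axin2, a scaffold of the complex that degrades beta-catenin and a general feedback target, had 6.84, 8.93 and 9.38 as its lowest, median and highest Ctnnb1 level and 6.36, 5.82 and 5.83 in Ha-ras tumours. Every Ctnnb1 tumour was above every Ha-ras tumour, by 0.48 at the nearest pair, and the difference was 2.57 ± 0.38 (adjusted p = 0.000212, limma). Ctnnb1 tumour 6 held the lowest Axin2 level of its group, near the Ha-ras tumours.

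Several inhibitors of the pathway were among these genes. Nkd1, an inhibitor of Dishevelled, differed by 3.47 ± 0.80, Notum, which strips Wnt proteins of their lipid, by 2.18 ± 0.30, and the ubiquitin ligases Znrf3 and Rnf43, which remove Frizzled receptors, by 1.75 ± 0.23 and 1.74 ± 0.26 (adjusted p = 0.00678, 8.74e-05, 5.17e-05 and 0.000229, limma). The transcription factor Tbx3 differed by 3.58 ± 0.28 (11.9-fold, adjusted p = 2.36e-07) and the receptor Tnfrsf19 by 2.77 ± 0.29 (adjusted p = 5.46e-06). Sp5, a transcription factor, differed by 3.14 ± 0.63 (adjusted p = 0.00264), but its lowest Ctnnb1 level, 4.96, lay below that of Ha-ras tumour 1, 5.14. Wif1, a secreted protein that binds Wnt, ranged from 2.97 to 8.82 in Ctnnb1 tumours and lay at 2.84, 2.60 and 2.82 in Ha-ras tumours. Its difference of 3.16 ± 0.91 passed (adjusted p = 0.0271), yet not when any of Ha-ras tumours 1, 2 or 3 was left out (adjusted p up to 0.0922). Other inhibitors did not pass: Dkk1 differed by -0.16, Dkk4 by 0.04, Nkd2 by 0.15 and Apcdd1 by 0.07 (adjusted p = 0.19, 0.97, 0.602 and 0.762). The other probe sets of Apcdd1 differed by 0.027 to 1.24 and did not pass either (adjusted p = 0.167 to 0.929, limma).

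Of the listed targets tied to growth, Myc, Ccnd1 and Cd44 did not pass. Myc differed by 0.89 (95% interval 0.15 to 1.64, adjusted p = 0.107), Ccnd1, the gene of cyclin D1, by -0.62 (-1.50 to 0.27, adjusted p = 0.391) and the adhesion receptor Cd44 by 1.19 (0.15 to 2.23, adjusted p = 0.125). The intervals of Myc and Cd44 lie above 0 before adjustment. Another probe set of Cd44 differed by 1.55 and passed (adjusted p = 0.0440, limma), while those at 0.196 and 0.0436 did not.

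Genes of the signalling pathway itself moved less. Of 15 measured genes of Wnt receptors, beta-catenin, its destruction complex and TCF factors, 2 were higher in Ctnnb1 and 5 in Ha-ras tumours, with a median of -0.24. Ctnnb1 lay between 12.20 and 12.54 (median 12.46) in Ctnnb1 tumours and at 12.88, 12.99 and 12.77 in Ha-ras tumours. It was lower in the tumours that carry its mutation, without overlap, by a small step of -0.46 ± 0.09 (adjusted p = 0.00182, limma). The array reads the RNA level and not the mutation, and 2 other probe sets, at -0.71 (adjusted p = 0.0526) and -0.31 (adjusted p = 0.732), did not pass. The Wnt receptors Fzd5 (-0.998 ± 0.18) and Lrp6 (-0.69 ± 0.12) and the repressor Tcf7l1 (-0.63 ± 0.13) were higher in Ha-ras tumours as well (adjusted p = 0.00106, 0.000921 and 0.00301).

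All 16 measured pericentral hepatocyte genes passed with the higher level in Ctnnb1 tumours, and on 14 of them the arrays of the groups did not overlap. Their differences ran from 1.37 to 3.98 with a median of 2.99. In the comparison of each tumour type with its own control livers, which shares the tumour arrays, 8 of the 16 rose and 0 fell in Ctnnb1 tumours, and 1 rose and 8 fell in Ha-ras tumours. Over all genes 1105 (6.07%) rose and 1087 (5.97%) fell in the first of these comparisons, and 1311 (7.21%) rose and 1151 (6.33%) fell in the second.

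Glul, glutamine synthetase, had 12.07, 13.80 and 14.13 as its lowest, median and highest level in Ctnnb1 tumours, and 11.70, 10.57 and 11.06 in Ha-ras tumours. The lowest of the former, again tumour 6, was above all of the latter, and the difference was 2.49 ± 0.44 (5.61-fold, adjusted p = 0.00101, limma). Cyp1a2, which oxidizes caffeine and many drugs, had 12.63, 14.13 and 14.33 in Ctnnb1 tumours and 10.24, 9.22 and 10.33 in Ha-ras tumours, 3.98 ± 0.33 apart (15.8-fold, adjusted p = 5.34e-07). It is the gene whose promoter match is printed above at -244. Lect2, a secreted protein of hepatocytes, had 12.82, 13.54 and 13.78 against 10.32, 9.36 and 10.01, a difference of 3.55 ± 0.25 (adjusted p = 7.1e-08). For Lect2, unlike Cyp1a2, both sides had moved from their controls: it rose by 1.59 (adjusted p = 0.00088) in Ctnnb1 tumours and fell by 1.83 (adjusted p = 0.000538) in Ha-ras tumours, while Cyp1a2 differed by 0.61 (adjusted p = 0.257) from its control in Ctnnb1 tumours and fell by 2.62 (adjusted p = 0.000305) in Ha-ras tumours.

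Transport of nitrogen and acids was represented by 4 genes. The ammonium transporter Rhbg differed by 3.44 ± 0.60, the dicarboxylate transporter Slc13a3 by 3.59 ± 0.42, the glutamate transporter Slc1a2 by 3.40 ± 0.86 and the amino acid transporter Slc1a4 by 1.42 ± 0.33 (adjusted p = 0.000779, 2.07e-05, 0.0127 and 0.00807, limma). Slc1a2 overlapped between the groups, with a lowest Ctnnb1 level of 5.53 against 6.06 in Ha-ras tumour 1, and did not pass without Ha-ras tumour 2 or 3, while Slc1a4 did not pass without Ha-ras tumour 3. The ethanol-metabolizing Cyp2e1, at 14.17 to 14.60 in Ctnnb1 tumours, differed least of the list, by 1.37 ± 0.19 (adjusted p = 0.000119). Ahr, the receptor that regulates Cyp1a2, differed by 2.90 ± 0.16 (adjusted p = 7.05e-09), with 11.10 as its lowest Ctnnb1 level and 8.90 as its highest Ha-ras level. Gulo, which makes vitamin C in mice, differed by 2.08 ± 0.22 (adjusted p = 7.66e-06).

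**Figure D2:**
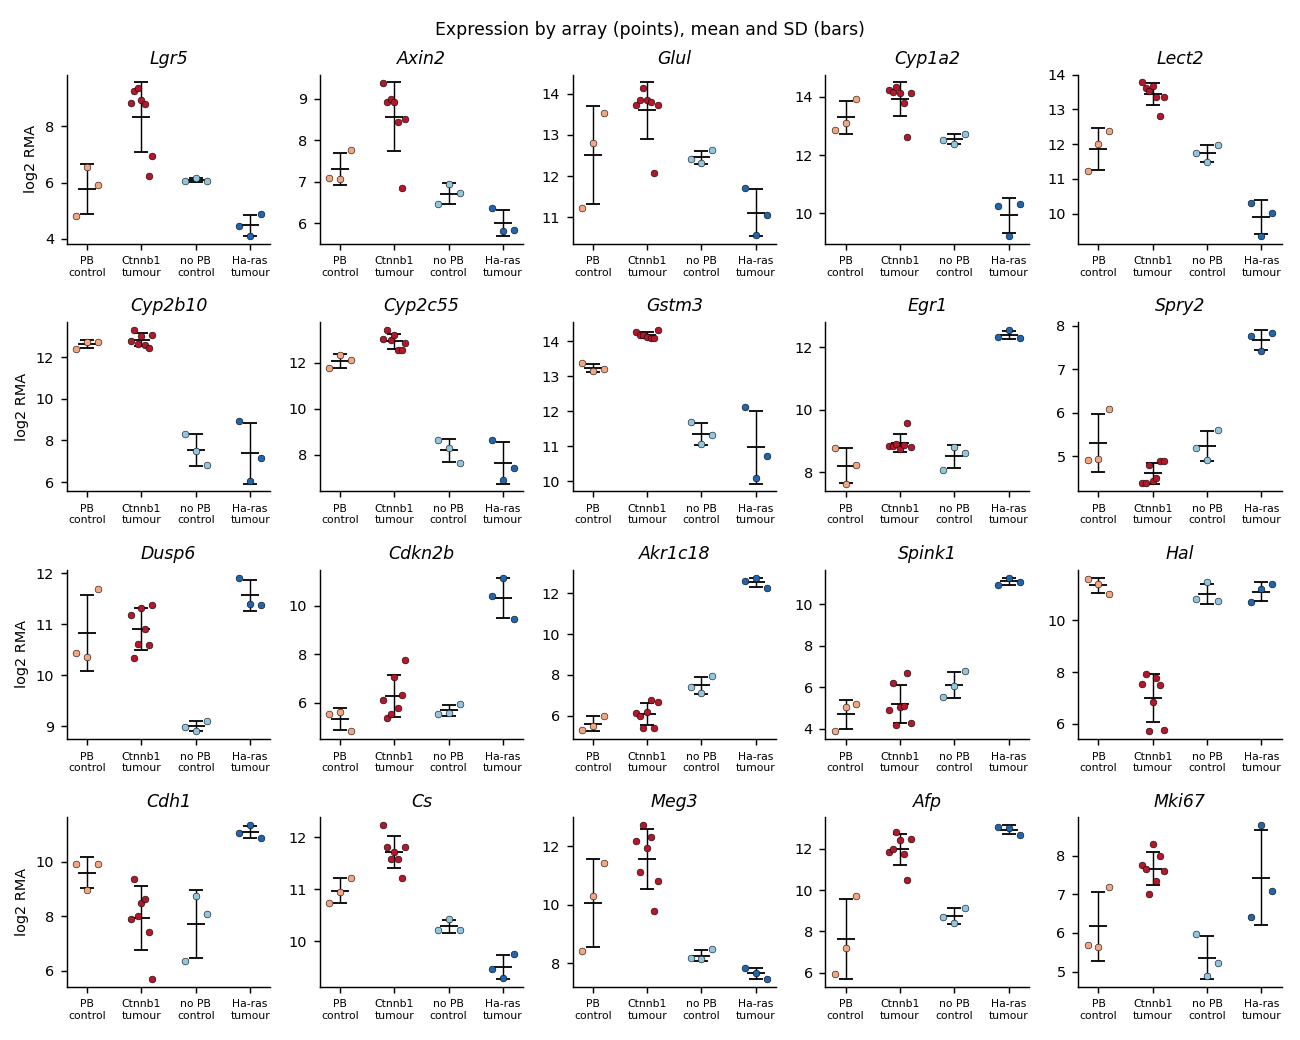
Log2 RMA level of 20 genes by array (points) in phenobarbital (PB) control livers, Ctnnb1 tumours, control livers without phenobarbital and Ha-ras tumours, with the mean and SD of each group as bars. Lgr5, Axin2, Glul, Cyp1a2 and Lect2 lie higher in the 7 Ctnnb1 tumours than in the 3 Ha-ras tumours, Egr1, Spry2, Cdkn2b, Akr1c18 and Spink1 lie lower, and Afp and Mki67 overlap.

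Periportal genes went the other way, in part. Of 13 measured, 7 passed with the higher level in Ha-ras tumours and 0 with the higher level in Ctnnb1 tumours, with a median of -1.70. Against their own controls, 11 of the 13 fell and 0 rose in Ctnnb1 tumours, and 2 fell and 2 rose in Ha-ras tumours. Hal, which opens histidine breakdown, had 5.71, 7.51 and 7.93 as its lowest, median and highest level in Ctnnb1 tumours and 10.70, 11.22 and 11.41 in Ha-ras tumours. The groups lay 2.77 apart at their nearest arrays and differed by -4.10 ± 0.43 (17.2-fold, adjusted p = 6.58e-06, limma). The Ha-ras level of Hal was close to that of its control livers, with a mean of 11.11 against 11.03. Aldh1b1, a mitochondrial aldehyde dehydrogenase, differed by -5.29 ± 0.53 (39.2-fold, adjusted p = 4.18e-06), E-cadherin (Cdh1) by -3.17 ± 0.61 (adjusted p = 0.00174), and the steroid dehydrogenase family member Hsd17b13 of lipid droplets by -2.005 ± 0.23 (adjusted p = 1.32e-05). For Cdh1 the Ha-ras tumours rose above their controls by 3.38 (adjusted p = 0.00452).

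Not every periportal gene took part. Cyp2f2 differed by -1.70 (interval -3.46 to 0.06, adjusted p = 0.207), with means of 8.99 ± 1.82 (SD, n = 7) and 10.69 ± 0.998 (n = 3) beside control means of 13.18 and 13.54. The gluconeogenic enzyme Pck1 differed by -1.58 (interval -2.76 to -0.40, adjusted p = 0.0707). Its other probe sets differed by -2.71, which passed (adjusted p = 1.96e-07, limma), and by -1.65, which did not (adjusted p = 0.169). Etnppl, at a mean of 12.40 and 11.32 in the control livers, was at 7.17 ± 0.91 and 6.82 ± 1.78 in the tumours, and its difference of 0.35 (interval -0.94 to 1.65) did not pass.

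Nitrogen disposal was divided between the tumour types. Arg1, the arginase of the urea cycle, lay at 7.72, 10.04 and 12.10 (lowest, median, highest) in Ctnnb1 tumours and at 13.24, 12.73 and 13.40 in Ha-ras tumours. All Ha-ras tumours were above all Ctnnb1 tumours, with a difference of -3.16 ± 0.68 (8.92-fold, adjusted p = 0.00421, limma). Arg2, the mitochondrial arginase, had the reverse order, with 5.69, 7.996 and 9.20 in Ctnnb1 tumours and 4.23, 3.97 and 4.04 in Ha-ras tumours, a difference of 3.61 ± 0.53 (12.2-fold, adjusted p = 0.000166). Arg2 rose by 3.43 above the controls in Ctnnb1 tumours (adjusted p = 0.000758). Cps1, which opens the urea cycle, differed by -1.45 ± 0.37 (adjusted p = 0.0132), though not without Ha-ras tumour 3 (adjusted p = 0.0614), and Slc38a3, a glutamine transporter, by -1.23 ± 0.21 (adjusted p = 0.000605). Over the urea cycle and ammonium list 3 of 14 genes were higher in Ctnnb1 and 3 in Ha-ras tumours, with a median of 0.07.

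Amino acid breakdown was split as well, with 5 of 29 enzymes higher in Ctnnb1 tumours, 6 higher in Ha-ras tumours and a median of -0.08. Higher in Ha-ras tumours were the 4 enzymes of histidine breakdown on the list, Hal, Uroc1 (-2.14 ± 0.43), Amdhd1 (-2.28 ± 0.37) and Ftcd (-1.66 ± 0.29), with the glycine-cleaving Gldc (-3.65 ± 0.53) and the asparaginase Aspg (-3.34 ± 0.43). Higher in Ctnnb1 tumours were Prodh of proline breakdown (3.60 ± 0.45), Csad of taurine synthesis (2.83 ± 0.33), and Hpd (1.31 ± 0.28) and Hgd (1.21 ± 0.15) of tyrosine breakdown. Gldc lay at 4.73 to 7.80 in Ctnnb1 tumours and at 9.67, 10.57 and 10.29 in Ha-ras tumours, and Prodh at 9.58 to 11.78 and at 6.93, 6.80 and 8.58. Serine synthesis was higher in Ha-ras tumours, with Psat1 at -2.06 ± 0.29 and Psph at -1.67 ± 0.23 (adjusted p = 0.000126 and 0.000118, limma). Both had risen above the controls in Ha-ras tumours, by 3.45 (adjusted p = 7.5e-06) and 2.13 (adjusted p = 8.78e-05). Phgdh, the first enzyme of that route, differed by -0.68 ± 0.16 (adjusted p = 0.00626), but not without Ha-ras tumour 2 (adjusted p = 0.0621), and its 3 other probe sets differed by -1.22 to -3.31 and passed.

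Bile acid genes were higher in Ctnnb1 tumours: 10 of 17 passed in that direction and 0 in the other, with a median of 1.08. Cyp7a1, which sets the pace of bile acid synthesis, had 11.10, 11.91 and 12.92 as its lowest, median and highest level in Ctnnb1 tumours and 8.22, 7.40 and 8.95 in Ha-ras tumours. The groups did not overlap and differed by 3.72 ± 0.48 (13.1-fold, adjusted p = 5.42e-05, limma). Against the controls, Cyp7a1 rose by 1.62 in Ctnnb1 tumours (adjusted p = 0.0387) and fell by 3.13 in Ha-ras tumours (adjusted p = 0.00144). Cyp8b1, which sets the share of cholic acid, differed by 2.30 ± 0.36 and Cyp27a1 of the alternative route by 2.89 ± 0.20 (adjusted p = 0.000289 and 6e-08). Among the transporters, the uptake carrier Slco1b2 differed by 3.07 ± 0.24, the bile salt export pump Abcb11 by 1.37 ± 0.28 and the efflux pump Abcc4 by 3.32 ± 0.61 (adjusted p = 2.48e-07, 0.00304 and 0.00134). Over the list 13 of 17 genes fell and 0 rose in Ha-ras tumours against their controls, and 2 fell and 4 rose in Ctnnb1 tumours.

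Most targets of CAR, the receptor through which phenobarbital acts, were higher in Ctnnb1 tumours. Of 19 measured, 16 were higher there and 0 in Ha-ras tumours, with a median of 1.68. Between the control livers 3 of the 19 were higher with phenobarbital and 0 lower, and the list's median control difference was 0.92. Against their own controls 5 rose and 0 fell in Ctnnb1 tumours, and 2 rose and 6 fell in Ha-ras tumours. These tumour effects differed for 9 of the 19, 8 of them more positive in Ctnnb1 tumours. Cyp2b10, the standard CAR target, had 12.43, 12.76 and 13.31 as its lowest, median and highest level in Ctnnb1 tumours and 8.93, 6.04 and 7.17 in Ha-ras tumours. The difference was 5.44 ± 0.43 (43.5-fold, adjusted p = 3.12e-07, limma), and all Ctnnb1 tumours lay above all Ha-ras tumours. The control livers differed in the same way, by 5.08 (adjusted p = 0.000352), with means of 12.62 with and 7.54 without phenobarbital. Tumour and control of the same treatment differed by 0.20 (Ctnnb1, adjusted p = 0.814) and -0.16 (Ha-ras, adjusted p = 0.888). Cyp2 and Gst genes resemble each other in sequence, and which member a probe set reads is uncertain.

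Other CAR targets had larger differences between the tumours than between the controls. Cyp2c55 had 12.55, 12.99 and 13.45 in Ctnnb1 tumours and 8.65, 6.87 and 7.41 in Ha-ras tumours, a difference of 5.31 ± 0.31 (adjusted p = 9.62e-09) beside one of 3.90 between the controls (adjusted p = 0.000241). Cyp2c37 differed by 3.82 ± 0.27 between tumours (adjusted p = 6.93e-08) and by 1.26 between controls (adjusted p = 0.112). It fell by 3.12 in Ha-ras tumours against their controls (adjusted p = 8.35e-06). The receptor itself, Nr1i3, differed by 2.52 ± 0.24 between tumours (5.75-fold, adjusted p = 2.84e-06) and by -0.64 between controls (adjusted p = 0.346). The difference between the tumour effects, which takes the control difference off, was 3.16 for Nr1i3 (adjusted p = 0.000109), 2.56 for Cyp2c37 (adjusted p = 0.00138), 1.41 for Cyp2c55 (adjusted p = 0.107) and 0.37 for Cyp2b10 (adjusted p = 0.837). Cyp2b9 and Cyp2b13 stood apart from the list, with differences of -1.44 (interval -2.80 to -0.08) and -0.36 (-1.99 to 1.27) that did not pass.

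Between the control livers 39 genes (0.214%) passed, 24 (0.132%) higher and 15 (0.0824%) lower under phenobarbital, and 9 passed without phenobarbital control 6. This comparison shares no array with that of the tumours. Of the 39 genes, 19 (48.7%) also passed between the tumours, all in the same direction, and they are 0.691% of the tumour calls. That share leaves out control differences that fell short of the threshold. Passing or not, 2 times the control difference exceeded the tumour difference, with the same sign, on many of the tumour calls. These were 256 of the 1312 genes higher in Ctnnb1 and 206 of the 1438 higher in Ha-ras tumours. Among the 19 that passed in both were Cyp2c65 (3.94 ± 0.72 between tumours and 4.80 between controls), Cyp2c54 (4.02 ± 0.18 and 1.17), the glutathione transferases Gstm3 (3.20 ± 0.28 and 1.88) and Gstm4 (2.78 ± 0.19 and 1.27), the collagenase Mmp13 (2.19 ± 0.34 and 2.37), the water channel Aqp4 (-3.02 ± 0.28 and -1.95) and Akr1c18. Aqp4 fell in both tumour types against their controls, by 3.76 in Ctnnb1 tumours (adjusted p = 2.81e-06) and by 2.69 in Ha-ras tumours (adjusted p = 5.62e-05), and its other probe sets, at -0.89 and -0.041, did not pass between the tumours. The difference between the tumour effects passed on 988 genes (5.43%), 389 (2.14%) more positive and 599 (3.29%) more negative in Ctnnb1 tumours.

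**Figure D3:**
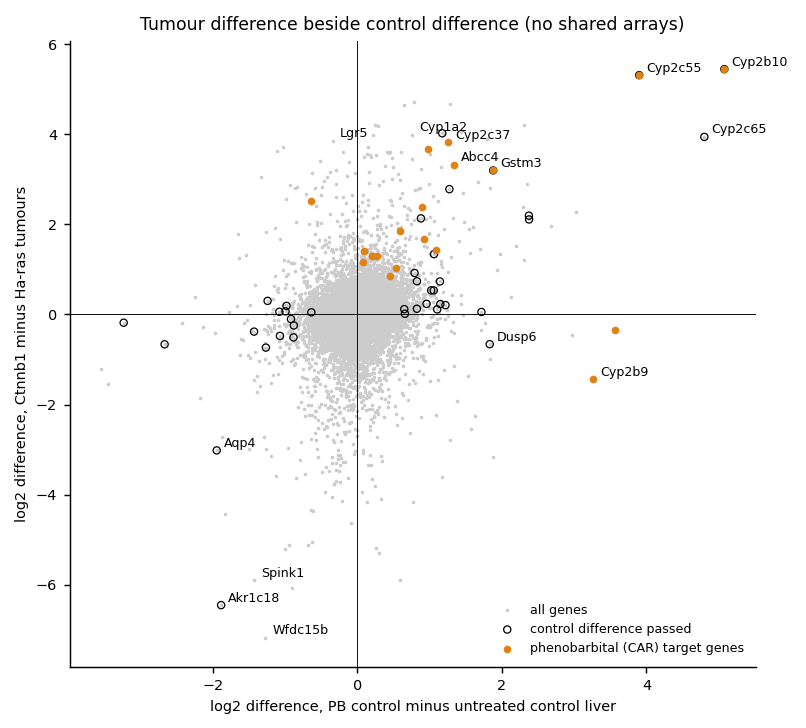
Log2 difference between phenobarbital and untreated control livers (x axis) and between Ctnnb1 and Ha-ras tumours (y axis) for 18193 genes, with open circles on the 39 genes that passed between controls and orange points on the 19 CAR target genes. Cyp2b10 lies at 5.08 and 5.44, Akr1c18 at -1.88 and -6.45, and Lgr5 at -0.34 and 3.85.

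Of 14 measured genes of the NRF2 pathway, which makes glutathione and reduces oxidants, 7 were higher in Ctnnb1 tumours, 1 was lower and 6 did not pass, with a median of 0.96. Gclm, a subunit of the enzyme that starts glutathione synthesis, had 11.65, 11.88 and 12.08 as its lowest, median and highest level in Ctnnb1 tumours and 10.23, 10.54 and 10.49 in Ha-ras tumours. It differed without overlap by 1.44 ± 0.15 (2.72-fold, adjusted p = 4.5e-06, limma). Gsta4 differed by 1.54 ± 0.21 and glutathione reductase (Gsr) by 1.36 ± 0.23 (adjusted p = 0.000106 and 0.000628). Nqo1, a quinone reductase, differed by 1.95 ± 0.52 (adjusted p = 0.0181), with overlap, and not without Ha-ras tumour 2 (adjusted p = 0.156). Osgin1 went against the list, at -0.89 ± 0.25 (adjusted p = 0.0238), and did not pass without Ha-ras tumour 1 or 2 (adjusted p up to 0.147).

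Feedback and output genes of ERK were higher in Ha-ras tumours: 10 of 17 passed in that direction and 0 in the other, with a median of -1.07. With genes of low mean level left out, 5 passed, and some members, Etv5 and Dusp4 among them, were not tested. Against their controls 10 of the 17 rose and 0 fell in Ha-ras tumours, and 0 rose and 1 fell in Ctnnb1 tumours. Spry2, a Sprouty protein that dampens receptor signals to Ras, had 4.38, 4.49 and 4.90 as its lowest, median and highest level in Ctnnb1 tumours and 7.77, 7.42 and 7.84 in Ha-ras tumours. The nearest arrays lay 2.52 apart and the difference was -3.07 ± 0.23 (8.39-fold, adjusted p = 1.46e-07, limma). Another probe set of Spry2 differed by -0.23 and did not pass (adjusted p = 0.274, limma). Spry4 (-2.63 ± 0.26), Spry1 (-1.31 ± 0.18), Spred1 (-1.17 ± 0.17) and Spred2 (-1.31 ± 0.20), of the same family of inhibitors, had the same direction, as had the ETS factor Etv5 (-2.06 ± 0.16) and the phosphatase Dusp4 (-1.07 ± 0.18). Other probe sets of Spry4 (0.14), Spred1 (0.072 and 0.0996) and Spred2 (0.035 and 0.13) had the opposite sign and did not pass (adjusted p = 0.559 to 0.934, limma). Etv5 lay at 7.54, 7.54 and 7.58 in Ha-ras tumours and between 5.03 and 5.80 in Ctnnb1 tumours. Etv4, a close relative of Etv5, differed by -0.06 (interval -0.33 to 0.21, adjusted p = 0.835).

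Dusp5, a nuclear phosphatase of ERK, had 5.99, 6.44 and 6.61 in Ctnnb1 tumours and 8.10, 8.56 and 7.51 in Ha-ras tumours, a difference of -1.71 ± 0.19 (adjusted p = 9.68e-06, limma). Its promoter is shown because it holds the CArG box, the sequence bound by serum response factor, side by side at positions -82 and -72. It lies at chr19:53528895-53529194 on the plus strand (GRCm38.p6, RefSeq), printed 5′ to 3′ with both boxes in capitals.
Dusp5: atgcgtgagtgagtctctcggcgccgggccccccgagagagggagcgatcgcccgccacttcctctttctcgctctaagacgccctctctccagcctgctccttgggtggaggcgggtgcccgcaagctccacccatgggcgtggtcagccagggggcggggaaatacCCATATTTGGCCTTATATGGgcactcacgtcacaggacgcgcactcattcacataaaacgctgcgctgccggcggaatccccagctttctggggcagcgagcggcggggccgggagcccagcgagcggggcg
A CArG box was found, on either strand, in a promoter of 229 of 14452 genes (1.58%). It was held by 17 of 1062 genes (1.60%) higher in Ctnnb1 tumours and by 21 of 1136 (1.85%) higher in Ha-ras tumours. Of the 16 immediate early genes with a promoter 3 held it (Egr2, Srf and Zfp36), and of the 12 ERK feedback genes 1. Egr2 did not pass between the tumours, at 0.19 (adjusted p = 0.701, limma). The AP-1 sequence TGANTCA was found in a promoter of 1090 of the 14452 genes (7.54%). It was held by 93 of the 1062 (8.76%) and 85 of the 1136 (7.48%).

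Dusp6, the cytoplasmic phosphatase of ERK, did not pass in the direct comparison. It had 10.35, 10.91 and 11.38 as its lowest, median and highest level in Ctnnb1 tumours and 11.92, 11.41 and 11.38 in Ha-ras tumours, a difference of -0.66 ± 0.27 (interval -1.24 to -0.08, adjusted p = 0.127, limma). It passed, at -0.71 with arrays weighted by their quality and at -0.66 without phenobarbital control 6. The control livers differed in the opposite direction, by 1.83 (adjusted p = 0.0315), with means of 10.83 with and 8.999 without phenobarbital. Against their controls Dusp6 rose by 2.57 in Ha-ras tumours (adjusted p = 5.93e-05) and differed by 0.08 in Ctnnb1 tumours (adjusted p = 0.895), and the effects differed by -2.49 (adjusted p = 0.00201).

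Of 22 immediate early genes, 8 were higher in Ha-ras and 1 in Ctnnb1 tumours, with a median of -0.15. Egr1, a zinc finger factor switched on by ERK through serum response factor, had 8.73, 8.86 and 9.58 in Ctnnb1 tumours and 12.32, 12.56 and 12.30 in Ha-ras tumours. The groups lay far apart, at -3.45 ± 0.22 (10.9-fold, adjusted p = 2.61e-08, limma), and Egr1 rose by 3.88 above the controls in Ha-ras tumours (adjusted p = 1.2e-07). Btg2 (-2.71 ± 0.26), Fos (-1.88 ± 0.17), Junb (-1.42 ± 0.20) and Ier2 (-1.23 ± 0.12) had the same direction (adjusted p = 2.09e-06, 1.68e-06, 0.000102 and 2.31e-06). Ccn1, a matrix protein, went the other way at 0.91 ± 0.25 (adjusted p = 0.0182), but not without any of Ha-ras tumours 1, 2 or 3 (adjusted p up to 0.0727). The components of the EGFR and ERK cascade showed no common direction. Of their 20 genes 2 were higher in either tumour type, beside 7.21% and 7.9% of all genes, and their median was 0.02. Among them Errfi1, a feedback inhibitor of EGFR, differed by -1.23 ± 0.31 (adjusted p = 0.0112), though not without Ha-ras tumour 3 (adjusted p = 0.0508).

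**Figure D4:**
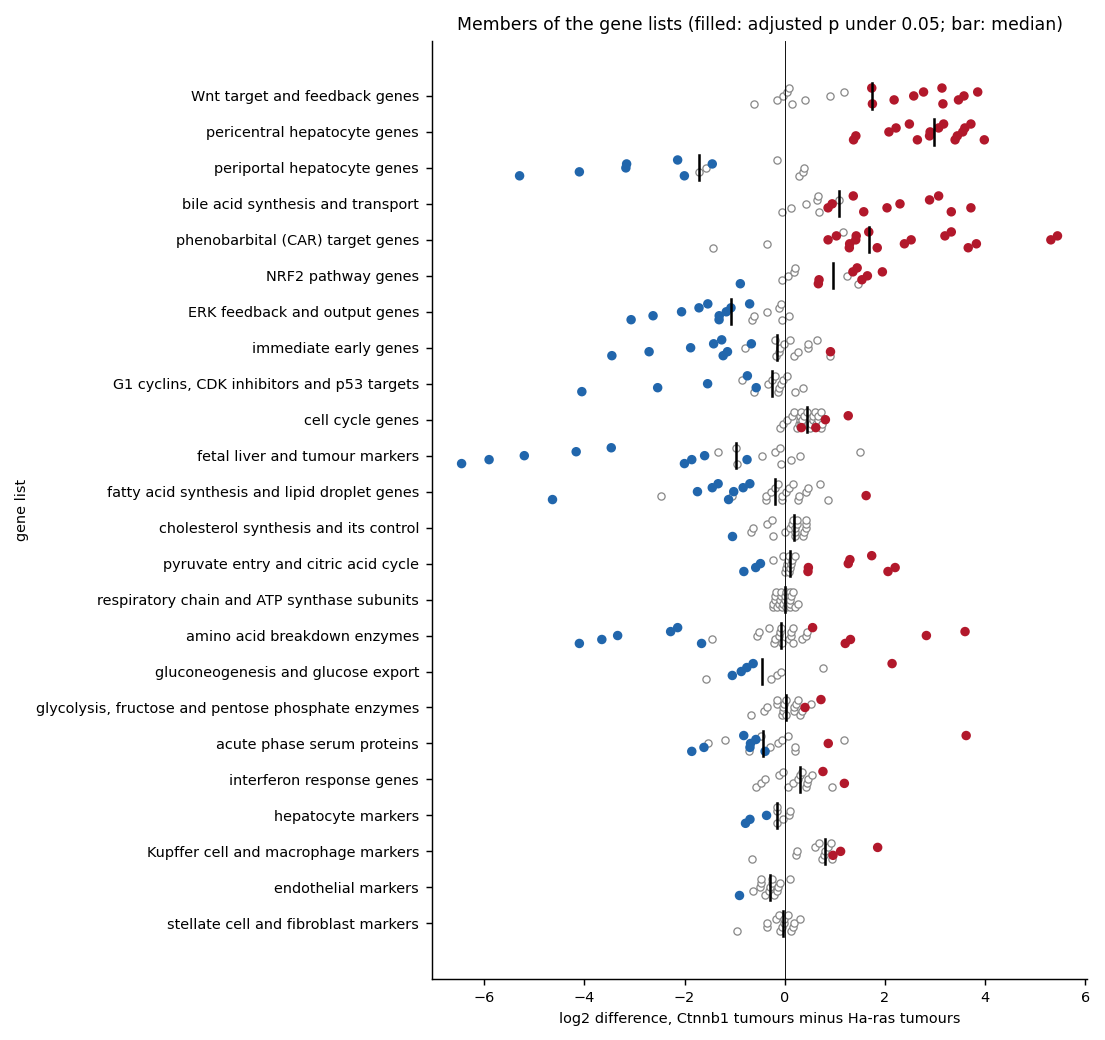
Log2 difference between Ctnnb1 and Ha-ras tumours (x axis) of the members of 24 gene lists (y axis), filled where the adjusted p was under 0.05 (red higher in Ctnnb1, blue higher in Ha-ras tumours), with the median of each list as a bar. The medians run from -1.70 for periportal to 2.99 for pericentral genes, and no member of the respiratory chain passed.

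The CDK inhibitor genes Cdkn2a and Cdkn2b were higher in Ha-ras tumours. Of 17 cyclins, CDK inhibitors and p53 targets 5 passed in that direction and 0 in the other, 3 of them by at least 2-fold, with a median of -0.25. Cdkn2b, which encodes p15, had 5.37, 6.09 and 7.76 as its lowest, median and highest level in Ctnnb1 tumours and 10.38, 11.12 and 9.46 in Ha-ras tumours. The groups did not overlap and differed by -4.05 ± 0.44 (16.6-fold, adjusted p = 9.66e-06, limma). Its neighbour Cdkn2a, which encodes p16 and p19ARF, had 4.47 to 5.35 in Ctnnb1 tumours and 7.13, 7.53 and 7.31 in Ha-ras tumours, -2.54 ± 0.18 apart (adjusted p = 9.69e-08). The p53 target Phlda3 differed by -1.54 ± 0.21 (adjusted p = 6.95e-05) and cyclin E1 (Ccne1) by -0.75 ± 0.13 (adjusted p = 0.00103). The CDK inhibitor p21, Cdkn1a, did not pass, at -0.85 (interval -1.56 to -0.14, adjusted p = 0.107). Nor did the CDK inhibitors Cdkn1b (-0.034), Cdkn1c (-0.12) and Cdkn2c (0.20), with adjusted p = 0.915, 0.566 and 0.564.

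Of 29 genes of the cell cycle machinery, 4 were higher in Ctnnb1 and 0 in Ha-ras tumours, beside 7.21% and 7.9% of all genes. The median was 0.43, the differences ran from -0.09 to 1.27, and 9 had an unadjusted p under 0.05 (limma). Mki67, the proliferation marker Ki-67, had 7.02, 7.65 and 8.31 in Ctnnb1 tumours and 6.41, 8.79 and 7.08 in Ha-ras tumours, so that Ha-ras tumours 1 and 2 lay on either side of the Ctnnb1 group. Its difference was 0.24 ± 0.44 (interval -0.69 to 1.17, adjusted p = 0.806, limma), and -0.27 without Ha-ras tumour 1. Both tumour types were above their controls, by 1.497 (adjusted p = 0.0366) and 2.06 (adjusted p = 0.0142). Mcm6, of the helicase that opens DNA for replication, differed by 1.27 ± 0.23 (adjusted p = 0.00135), with 7.91 as its lowest Ctnnb1 level and 7.37 as its highest Ha-ras level.

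Markers of fetal liver and of liver tumours separated the types in part: 9 of 19 were higher in Ha-ras tumours and 0 in Ctnnb1 tumours, with a median of -0.98. The list was chosen with earlier results of these data known, so that its count is a description. Its members Akr1c18, Spink1 and Tspan8 are also among the 15 largest differences in favour of Ha-ras tumours. Spink1, a trypsin inhibitor, had 4.17, 5.05 and 6.69 as its lowest, median and highest level in Ctnnb1 tumours and 10.92, 11.29 and 11.09 in Ha-ras tumours, -5.90 ± 0.47 apart (59.9-fold, adjusted p = 3.12e-07, limma). Akr1c18, a steroid reductase that inactivates progesterone, had 5.41, 6.13 and 6.79 against 12.61, 12.72 and 12.28, -6.45 ± 0.28 apart (87.6-fold, adjusted p = 5.92e-10). Neither gene rose in Ctnnb1 tumours above their controls (0.50 and 0.48, adjusted p = 0.546 and 0.3), and both rose in Ha-ras tumours, by 4.98 and 5.04 (adjusted p = 2.17e-05 and 1.07e-07). For Akr1c18 the controls also differed, by -1.88 (adjusted p = 0.0315). Bex1 (-4.16 ± 0.85), the trefoil peptide Tff3 (-3.46 ± 0.57), the tetraspanin Tspan8 (-5.20 ± 0.62) and the Golgi protein Golm1 (-2.004 ± 0.32) had the same direction (adjusted p = 0.0029, 0.000502, 2.48e-05 and 0.00043).

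Afp and Gpc3 rose in both types. Afp, alpha-fetoprotein, had 10.48, 11.99 and 12.79 in Ctnnb1 tumours and 13.06, 13.02 and 12.66 in Ha-ras tumours. The groups overlapped, the difference was -0.95 ± 0.59 (interval -2.20 to 0.29, adjusted p = 0.34, limma), and both rose above their controls, by 4.33 (adjusted p = 0.000305) and 4.17 (adjusted p = 0.000729). The probe set of Afp with the highest variance differed by -1.47 and passed (adjusted p = 0.0449). Gpc3, glypican 3, differed by -1.34 (interval -2.58 to -0.10, adjusted p = 0.149), and rose by 4.06 and 4.23 in Ctnnb1 and Ha-ras tumours (adjusted p = 0.000479 and 0.000603). Igf2 ranged from 5.51 to 10.81 in Ctnnb1 tumours and from 5.25 to 6.04 in Ha-ras tumours, and its difference of 1.503 (interval -0.18 to 3.19) did not pass.

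The gene with the largest difference of all was Wfdc15b, of a family of small secreted protease inhibitors. It had 4.03, 4.57 and 5.40 as its lowest, median and highest level in Ctnnb1 tumours and 11.51, 12.02 and 11.82 in Ha-ras tumours, -7.18 ± 0.26 apart (145-fold, adjusted p = 9.96e-11, limma). The gap between the nearest arrays, from 5.40 to 11.51, was wider than the spread within either group. Wfdc15b moved in both types, falling by 1.57 in Ctnnb1 tumours (adjusted p = 0.00133) and rising by 4.33 in Ha-ras tumours (adjusted p = 2.36e-07). Elapor1, a protein of endosomes and lysosomes, lay at 4.02 to 5.33 and at 10.75, 10.75 and 10.88 (-6.08 ± 0.24, adjusted p = 1.8e-10). Rdh16f2, of a family of retinol dehydrogenases, lay at 5.62 to 7.88 and at 12.45, 12.79 and 12.20 (-5.89 ± 0.39, adjusted p = 3.87e-08). It too moved in opposite directions from the controls, by -3.72 (adjusted p = 5.05e-05) and 2.76 (adjusted p = 0.000691).

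Large differences in favour of Ha-ras tumours also came from a channel, a motor protein and signalling genes. The sodium channel Scn8a (-5.18 ± 0.25), the kinesin Kif5c (-5.12 ± 0.32), Ipcef1 (-5.11 ± 0.24) and Rasgrp2, an activator of the GTPase Rap1 (-5.05 ± 0.22), lay at 8.88 or above in every Ha-ras tumour and at 5.74 or below in every Ctnnb1 tumour. Another probe set of Scn8a differed by 0.055 and the 2 others of Ipcef1 by -0.05 and -0.0013, and these did not pass (adjusted p = 0.857, 0.863 and 0.996, limma), while 2 others of Scn8a passed with the same sign. Cidea, a protein that enlarges lipid droplets, differed by -4.64 ± 0.26 (24.9-fold, adjusted p = 5.54e-09), with 3.82 to 4.95 in Ctnnb1 tumours and 9.05, 9.65 and 8.14 in Ha-ras tumours. The mitochondrial adenylate kinase Ak4 (-4.37 ± 0.37), Tcf24 (-4.42 ± 0.52) and the spindle protein Psrc1 (-4.35 ± 0.19) were the others among the 15 largest without overlap. For Ak4 it was the Ctnnb1 tumours that had fallen, by 2.80 from their controls (adjusted p = 0.000267), beside 0.95 in Ha-ras tumours (adjusted p = 0.186). Another probe set of Psrc1 differed by 0.017.

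Among the largest differences in favour of Ctnnb1 tumours, several belonged to no list. Snhg11, a noncoding RNA that hosts small nucleolar RNAs, had 8.60, 9.68 and 10.29 as its lowest, median and highest level in Ctnnb1 tumours and 4.78, 4.06 and 5.62 in Ha-ras tumours, 4.72 ± 0.33 apart (26.3-fold, adjusted p = 6.77e-08, limma). It fell by 2.92 from the controls in Ha-ras tumours (adjusted p = 0.000104). The potassium channel Kcnk1 lay at 8.78 to 10.27 and at 5.25, 4.52 and 4.58 (4.67 ± 0.32, adjusted p = 6.15e-08), and rose by 2.01 (adjusted p = 0.00105) and fell by 1.39 (adjusted p = 0.0228) in the respective tumours. The neuronal pentraxin Nptx1 (4.64 ± 0.40), Cyp2c39 (4.21 ± 0.61), Nxpe2 (4.18 ± 0.47), the vasopressin receptor Avpr1a (3.99 ± 0.37) and the matrix protein Sbspon (4.03 ± 0.79) followed (adjusted p = 8.44e-07, 0.00015, 1.17e-05, 2.01e-06 and 0.00207). Another probe set of Nxpe2 differed by 0.062 (adjusted p = 0.841). Nptx1 lay at 3.06, 2.97 and 2.92 in Ha-ras tumours, low values that may be background, and at 6.59 to 8.71 in Ctnnb1 tumours.

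A pair of noncoding RNAs of the imprinted Dlk1-Dio3 region stood in the same group. Meg3 had 9.78, 11.93 and 12.72 in Ctnnb1 tumours and 7.83, 7.68 and 7.47 in Ha-ras tumours, 3.89 ± 0.58 apart (14.9-fold, adjusted p = 0.000217, limma), and Rian lay 4.04 ± 0.59 apart (16.5-fold, adjusted p = 0.000182). For both genes the arrays of the groups did not overlap. Phenobarbital controls ranged from 8.44 to 11.44 for Meg3 and from 5.97 to 9.70 for Rian. The control livers differed by 1.79 and 1.43, without passing (adjusted p = 0.271 and 0.386, limma). Above their controls, Ctnnb1 tumours lay by 1.49 for Meg3 (adjusted p = 0.109) and 2.01 for Rian (adjusted p = 0.0379). The tumour effects did not differ past the threshold for either gene (adjusted p = 0.223 and 0.124). Dlk1, a protein-coding gene of the region, differed by -0.08 (interval -0.36 to 0.20, adjusted p = 0.778). Of the 10 other probe sets of Meg3, 8 passed with the same sign and 2 did not, at 0.56 and 0.58.

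Energy metabolism differed by single enzymes. Of 22 genes of pyruvate entry and the citric acid cycle 7 were higher in Ctnnb1 and 3 in Ha-ras tumours, with a median of 0.10. Cs, citrate synthase, had 11.22, 11.72 and 12.23 as its lowest, median and highest level in Ctnnb1 tumours and 9.46, 9.30 and 9.75 in Ha-ras tumours. It differed without overlap by 2.20 ± 0.17 (4.6-fold, adjusted p = 2.29e-07, limma). Idh3a (1.73 ± 0.20), Idh2 (1.27 ± 0.12) and Dlat (1.30 ± 0.13), of the oxidation of isocitrate and pyruvate, had the same direction (adjusted p = 2.16e-05, 1.54e-06 and 4.53e-06). Pdk4, which blocks pyruvate entry, was also higher in Ctnnb1 tumours (2.06 ± 0.41, adjusted p = 0.0023), and its relative Pdk1 was higher in Ha-ras tumours (-0.82 ± 0.19, adjusted p = 0.00805), though not without Ha-ras tumour 1 (adjusted p = 0.0773). Of 27 respiratory chain and ATP synthase subunits 0 passed with limma, 3 had an unadjusted p under 0.05, and the differences ran from -0.23 to 0.25.

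Calls in glucose metabolism went in both directions, beside 15.1% of all genes that passed. Of 20 enzymes of glycolysis, fructose and the pentose phosphate route, 2 were higher in Ctnnb1 and 0 in Ha-ras tumours, with a median of 0.02. Of 10 genes of gluconeogenesis and glucose export, 1 was higher in Ctnnb1 and 4 in Ha-ras tumours. The glucose transporter Slc2a2 differed by -1.05 ± 0.19 (adjusted p = 0.00125, limma). G6pc, which frees glucose from its phosphate, went against that list at 2.142 ± 0.53 (adjusted p = 0.0105), with overlap between the groups, and did not pass without Ha-ras tumour 1 (adjusted p = 0.101). The liver glycogen synthase Gys2 lay at 9.44 to 10.42 in Ctnnb1 tumours and at 11.79, 10.73 and 11.90 in Ha-ras tumours, -1.69 ± 0.26 apart (adjusted p = 0.000303), while 4 of the 11 glycogen genes were higher in Ctnnb1 tumours, among them Stbd1 (0.89 ± 0.16, adjusted p = 0.00091).

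Lipid synthesis and storage leaned to Ha-ras tumours, with 8 of 27 genes higher there, 1 higher in Ctnnb1 tumours and a median of -0.19. Beside Cidea these were Pnpla3 (-1.74 ± 0.25), the desaturases Fads2 (-1.45 ± 0.18) and Fads1 (-1.02 ± 0.18), the droplet coat Plin2 (-1.33 ± 0.20), the transcription factor Srebf1 (-1.12 ± 0.23), the acyltransferase Gpam (-0.70 ± 0.14) and Acly (-0.83 ± 0.25). Plin2 lay at 13.74, 13.70 and 13.76 in Ha-ras tumours and at 11.61 to 12.82 in Ctnnb1 tumours (adjusted p = 0.000212, limma). Acly, which makes acetyl-CoA, passed narrowly (adjusted p = 0.0362) and did not pass without any of Ha-ras tumours 1 to 3 or without Ctnnb1 tumours 2, 3, 5 or 6. Fatty acid synthase, Fasn, differed by -0.05 (interval -0.63 to 0.52, adjusted p = 0.937). The malic enzyme Me1 went against the list at 1.62 ± 0.48 (adjusted p = 0.0303), and did not pass without Ha-ras tumour 1, 2 or 3 or Ctnnb1 tumour 1 or 4 (adjusted p up to 0.0962). Of 20 cholesterol genes 1, the sterol transporter Stard4, passed (-1.05 ± 0.21, adjusted p = 0.00222), beside 15.1% of all genes.

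Fat oxidation gave 1 gene of 16 higher in Ctnnb1 and 3 higher in Ha-ras tumours, beside 7.21% and 7.9% of all genes. Cpt1a, the gate of mitochondrial fat oxidation, differed by -1.04 ± 0.21 and its regulator Ppara by -0.89 ± 0.18 (adjusted p = 0.00292 and 0.00239, limma). The controls leaned the same way for both, by -0.91 and -0.77, without passing (adjusted p = 0.136 for each).

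Genes with a sex bias in liver differed between tumours of mice that were all male. Of 11 male-biased genes 5 were higher in Ctnnb1 and 2 in Ha-ras tumours, with a median of 1.08, and 3 were higher in Ctnnb1 tumours without Ha-ras tumour 1. The fatty acid hydroxylase Cyp4a12a had 11.41, 11.51 and 12.19 as its lowest, median and highest level in Ctnnb1 tumours and 7.35, 8.57 and 9.61 in Ha-ras tumours, 3.13 ± 0.33 apart (8.76-fold, adjusted p = 6.43e-06, limma). It fell by 3.80 in Ha-ras tumours (adjusted p = 9.58e-06) and differed by -0.04 from the controls in Ctnnb1 tumours (adjusted p = 0.956). Complement C6 (2.19 ± 0.31) and Cyp2d9 (1.31 ± 0.22) had the same direction (adjusted p = 0.000117 and 0.000531), and Serpina12 went against it (-2.99 ± 0.41, adjusted p = 8.77e-05). Of 9 female-biased genes 2 were higher in Ha-ras tumours, of which Cyp17a1, a steroid hydroxylase, differed by -3.11 ± 0.36 (adjusted p = 1.92e-05). Among 15 genes of growth hormone and IGF signalling, Igfals (1.79 ± 0.29), Igfbp2 (-3.01 ± 0.70) and Igfbp1 (-0.98 ± 0.20) were among the 5 that passed (adjusted p = 0.000504, 0.00697 and 0.00324).

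Of 20 acute phase proteins 2 were higher in Ctnnb1 and 7 in Ha-ras tumours, with a median of -0.44, and 4 were higher in Ha-ras tumours without Ha-ras tumour 1 or without Ha-ras tumour 2. Serpina3n differed by -1.61 ± 0.23 and Itih3 by -0.82 ± 0.11 (adjusted p = 0.000161 and 5.44e-05, limma). Orm2, an orosomucoid, went against them at 3.62 ± 0.71 (adjusted p = 0.00207), with 10.36 to 13.88 in Ctnnb1 tumours and 8.92, 6.76 and 9.27 in Ha-ras tumours. Of 13 genes of iron handling 4 were higher in Ctnnb1 and 2 in Ha-ras tumours, among them the iron transporter Slc11a2 (1.30 ± 0.20) and Id1, a target of BMP signalling (-2.09 ± 0.44; adjusted p = 0.000299 and 0.00338). Of 17 interferon response genes 2 were higher in Ctnnb1 and 0 in Ha-ras tumours, beside 7.21% and 7.9% of all genes. Of 17 hepatocyte transcription factors 2 and 3 were, beside the same shares, and Hnf4a differed by -0.15 (interval -0.43 to 0.12, adjusted p = 0.516).

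**Figure D5:**
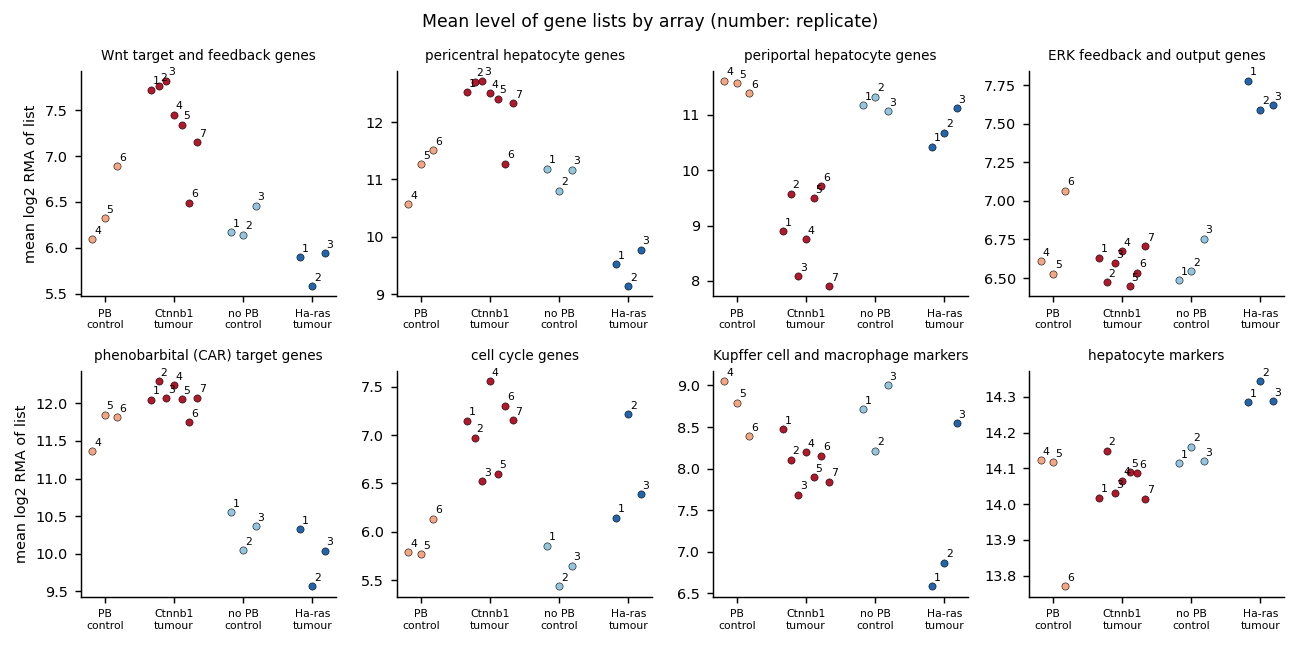
Mean log2 RMA level of 8 gene lists on each array, in phenobarbital (PB) control livers, Ctnnb1 tumours, control livers without phenobarbital and Ha-ras tumours, with the replicate number beside each point. Ctnnb1 tumour 6 lies lowest of its group for Wnt targets (6.49) and pericentral genes (11.27), and Ha-ras tumours 1 and 2 lie lowest of all for macrophage markers, at 6.58 and 6.87.

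Of 14 Kupffer cell and macrophage markers, 3 were higher in Ctnnb1 and 0 in Ha-ras tumours, with a median of 0.80. Cd68, a lysosomal protein of macrophages, lay at 8.13 to 9.29 in Ctnnb1 tumours and at 6.80, 6.06 and 8.22 in Ha-ras tumours, 1.85 ± 0.35 apart (adjusted p = 0.00169, limma), and Ha-ras tumour 3 fell within the range of the Ctnnb1 tumours. The complement genes C1qa (1.11 ± 0.35, adjusted p = 0.0422) and C1qc (0.96 ± 0.31, adjusted p = 0.0482) passed narrowly, and neither passed without Ha-ras tumour 1, without Ha-ras tumour 2 or without any of Ctnnb1 tumours 1, 2, 4, 5, 6 and 7. Clec4f, the defining marker of Kupffer cells, differed by 0.94 (interval -0.09 to 1.98, adjusted p = 0.24). The part of the macrophage markers in other differences was not tested.

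Of 15 endothelial markers 1 was higher in Ha-ras tumours (Gpr182, -0.91 ± 0.28, adjusted p = 0.0354, limma), and the call did not hold without Ha-ras tumour 2 or 3 or without Ctnnb1 tumour 1, 2 or 5 (adjusted p up to 0.158). Of 14 stellate cell, 12 lymphocyte and 5 neutrophil markers 0 passed, beside 15.1% of all genes, with 1, 1 and 0 at an unadjusted p under 0.05. Of 3 erythroid markers Alas2 was higher in Ctnnb1 tumours (1.62 ± 0.32, adjusted p = 0.00221), and of 6 bile duct markers Sox9 was higher in Ha-ras tumours (-0.75 ± 0.15, adjusted p = 0.00254). Kidney markers were measured because a protocol text also names kidney: their mean level stayed between 3.84 and 4.54 on all tumour arrays, and 1 of 5, Slc12a1, passed at -1.72 ± 0.43 (adjusted p = 0.0127), though not without Ha-ras tumour 2 or 3. Of 9 hepatocyte markers 3 were higher in Ha-ras tumours, among them Ahsg (-0.78 ± 0.15, adjusted p = 0.00158), and the transthyretin gene Ttr differed by 0.08 (interval -0.06 to 0.22).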

How the data were processed

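Affymetrix GeneChips read the RNA of 16 mouse liver samples. What was deposited is a log2 level for each probe set, made by the authors with RMA in R 2.14.1, per the submitters' processing notes. They were used without further scaling, and low values may be background, since detection calls were not at hand. The number of arrays limits the precision.

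The arrays hold 45101 probe sets, 64 of them controls. With Ha-ras left out, the platform annotation pairs 34945 with 1 gene symbol and 932 with several. The remaining 9160 have no symbol or are those of Ha-ras. Of those with 1 symbol, 34741 were found by Entrez identifier in RefSeq's GRCm38.p6 annotation, and 0 were renamed. Each gene was read from its probe set of highest mean, which gave 18193 genes, and 9010 had other probe sets too. Samples were grouped by their titles. All 16 arrays entered a fit of the 4 group means in limma 3.58.1 (R 4.3.3), moderated by eBayes, which gave every p, adjusted by Benjamini-Hochberg over all genes, with 0.05 as threshold. The fit was tested on simulated data.

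The members and the 41 gene lists were chosen with earlier results of these data known, and 62 list entries were not measured. Counts and medians of the lists therefore describe these data and are no independent test. The rule for named genes took the 15 largest differences in each direction among genes that passed without overlap (unnamed gene models left out), a fixed set (Ctnnb1, Glul, Axin2, Lgr5, Cyp2b10, Afp, Dusp6, Egr1, Mki67), the 8 largest whose control difference passed with the same sign or whose tumour effects differed in the opposite direction, and members of the lists. A planned permutation test of marker levels is not reported, since a mean over chosen members gets no p. Ha-ras itself is not analysed here.

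Alternatives were the 10 tumour arrays alone, a block for the replicate number (fixed or random), a filter on dim genes, other probe sets, quantile normalization, median centring, array weights, a trended robust eBayes, a 2-fold minimum and each tumour array or phenobarbital control 6 left out.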

Additional observations from a re-analysis of the deposited data

Results flagged for a closer look

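In 81 groups of 7 Ctnnb1 tumours (the levels of 40 named genes and the means of 41 lists), 10 had a tumour far from the others by Dixon's criterion, where chance gives about 1 in 20. For 7 of these the tumour was Ctnnb1 tumour 6: Nxpe2 at 8.39, Cyp1a2 at 12.64, Glul at 12.07 and Axin2 at 6.84 lay below the other tumours, Egr1 at 9.58 above them, the mean of the pericentral genes at 11.27 below and that of the cell junction and matrix genes at 8.47 above. Psrc1 was high in tumour 4, at 5.74. The mean of the respiratory chain genes was low in tumour 7, at 11.89, and that of the kidney markers high in tumour 2, at 4.25.

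The change of a tumour type against its own controls was compared between the types, and differed on 988 genes (5.43%), 27 of the 40 named genes among them. Most named genes were chosen for a large difference between the same tumour arrays. A high count among them follows in part from that choice. More positive in Ctnnb1 tumours were Lgr5 (4.19), Nptx1 (3.99), Cyp2c39 (3.96), Snhg11 (3.93), Nxpe2 (3.89), Avpr1a (3.78), Kcnk1 (3.40), Cyp1a2 (3.23), Cyp2c54 (2.85) and Gstm4 (1.51), all as differences of log2 changes. More negative were Rdh16f2 (-6.48), Wfdc15b (-5.91), Aldh1b1 (-5.60), Scn8a (-5.43), Elapor1 (-5.18), Akr1c18 (-4.57), Cidea (-4.55), Spink1 (-4.47), Kif5c (-4.44), Rasgrp2 (-4.42), Tspan8 (-4.20), Ipcef1 (-4.16), Ak4 (-3.76), Psrc1 (-3.70), Egr1 (-3.16), Dusp6 (-2.49) and Ctnnb1 (-0.55). The adjusted p (limma) ran from 8.34e-07 for Wfdc15b, Elapor1 and Scn8a to 0.0273 for Ctnnb1.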

How the results depend on the processing

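The number of genes that passed between the tumour types was 2750. It was 1745 to 3301 with 1 array left out, 898 with a 2-fold minimum, 2260 with a fixed replicate block and 2758 with a random replicate block. The tumour groups came from differently treated mice, so that a shared replicate number cannot mean a shared mouse. Same-numbered tumours of these groups correlated at -0.20, 0.05 and 0.04 across genes. Whether a tumour and the control liver of the same number came from 1 mouse was not tested. Between controls the count of 39 became 242 with array weights, 6 with a fixed replicate block and 9 (without phenobarbital control 6) to 47 with 1 array left out. The tumour effects differed on 1547 genes with array weights in place of 988. Of 229 named or listed genes that passed, 162 passed under every alternative fit that kept the threshold and in which they were tested (the fit with dim genes left out did not test 26 of the 229, 20 of them among the 162), 62 did not without 1 of the tumour arrays, and 0 turned in sign. Of 113 such genes with other probe sets, 12 had 1 or 2 of the opposite sign, of which 0 passed. Among them were Scn8a (0.0552), Psrc1 (0.0168), Sox9 (0.079), Slc12a1 (0.081) and Acly (0.098). Of the 411 named or listed genes that did not pass, 90 passed under at least 1 alternative fit. Another probe set of the cholesterol gene Lss passed, at -1.87 (adjusted p = 0.000375, limma). For the respiratory chain gene Cox5b, other probe sets passed in opposite directions, at 0.31 and -1.97 (adjusted p = 0.0158 and 1.54e-05). Counts of list members that moved beyond 1.5 times were those of Wnt receptor, beta-catenin, destruction complex and TCF genes higher in Ha-ras tumours (3 with the probe set of highest variance, 3 with the mean of all probe sets, 0 with a 2-fold minimum), ERK feedback genes (5 with dim genes left out), G1 and p53 genes (3 with a 2-fold minimum), male-biased genes higher in Ctnnb1 tumours (3 with tumour arrays only, 3 without Ha-ras tumour 1) and acute phase proteins higher in Ha-ras tumours (4 with a fixed replicate block, 4 to 10 with 1 array left out, 2 with a 2-fold minimum). For the ERK feedback genes the filter on dim genes also took members out of the test, Etv5 and Dusp4 among them. Where no construction shows it, the cause was not tested. With 3 Ha-ras tumours and no detection calls, small differences of dim genes were not resolved.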

Other observations

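The genes in this paragraph were chosen after their values were seen. The metallothioneins Mt1 and Mt2, which bind zinc and copper, were lower in Ctnnb1 tumours by -3.13 ± 0.92 and -3.00 ± 0.96 (log2, SE; adjusted p = 0.0303 and 0.0462, limma), with levels of Mt1 from 7.34 to 12.13 in Ctnnb1 tumours and a mean of 12.12 ± 0.82 (SD, n = 3) in Ha-ras tumours. Neither tumour type differed from its controls for Mt1 past the threshold (adjusted p = 0.139 and 0.931). Maoa, which oxidizes serotonin and noradrenaline, was higher in Ctnnb1 tumours by 3.60 ± 0.50 (12.1-fold, adjusted p = 0.000106), and Ccn4, a Wnt-induced matrix protein, by 3.55 ± 0.37 (11.7-fold, adjusted p = 6.26e-06), with no overlap for either. Mirg, a noncoding RNA of the region that holds Meg3 and Rian, was higher in Ctnnb1 tumours by 1.19 ± 0.27 (adjusted p = 0.00603). Pnliprp1, a relative of pancreatic lipase, differed by 4.20 ± 0.93 (adjusted p = 0.00522), with overlap between the groups.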
